A study of Arabidopsis thaliana with 15 samples.

Results

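Group IX of the ethylene response factor (ERF) family was followed in Arabidopsis thaliana roots through 8 genes named by locus code: ERF1A (AT4G17500), ERF2 (AT5G47220), ERF13 (AT2G44840), ERF5 (AT5G47230), ERF6 (AT4G17490), ERF104 (AT5G61600), ERF105 (AT5G51190) and ERF1 (AT3G23240). The rule lists the genes by code and sets no threshold on their levels. All 8 were among the 14532 genes of the deposited count table, and all 8 were among the 9986 genes with enough counts to be tested. Roots came from wild-type seedlings of ecotype Columbia-0, 7 d old, with 30 to 50 seedlings in each biological replicate and 3 replicates, a, b and c, in each of 5 groups. The groups were 5 mM hydrogen peroxide (H2O2) with 10 µM RB for 2 h, water, and 5 mM H2O2 alone for 1 h, 2 h or 3 h. RB stands for Rose Bengal in the title of the series, a photosensitiser that yields singlet oxygen when lit, and MRB is a second spelling in the labels. Transcripts were counted by MARS-seq, a method that sequences their 3' ends. The water samples carry time 0 in their titles and 1 h of water in their treatment field, so at 2 h and 3 h the treatment and the time in solution differ together. Roots given RB without H2O2 were not analysed here.

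ERF proteins carry a single AP2/ERF domain and bind the GCC box, a short promoter element of many defence genes. Ethylene reaches them through its receptors, the kinase CTR1, the membrane protein EIN2 and the transcription factor EIN3, which switches on ERF1 directly. Group IX holds mostly activators of transcription, and several of them are also substrates of stress-activated MAP kinases. In the usual phylogeny ERF1A, ERF2 and ERF13 form subgroup IXa, ERF5, ERF6, ERF104 and ERF105 form subgroup IXb, and ERF1 belongs to subgroup IXc.

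Total counts per library ran from 689372 to 6231140, and replicates correlated in log2 CPM (counts scaled to a common library total with TMM factors) at 0.890 to 0.969. The lowest count of any of the 8 genes in any library was 9, for ERF1. Of 10 root markers all were in the table, with a summed level of 384 to 564 CPM with RB, 341 to 590.3 CPM over the libraries of H2O2 alone and 539 to 619 CPM in water. CASP1 was the largest part of these sums, at group means of 295 to 417 CPM. The root hair genes EXPA7 and PRP3 and the nitrate transporter gene NRT2.1 fell in every treatment, with log2 fold changes over water of -2.75 to -6.63, and the part of this in the ERF results was not tested. NRT2.1 had 1 count in each RB library, so the size of its fall is uncertain. SCR, SHR, PLT1 and CASP1, the other root markers tested, were not called over water in any treatment. COBL9, NRT2.1 and RHD2 were the root markers at 0 in some library, and no root library lacked more than 2 of the 10. Of 10 shoot markers all were in the table as well, and summed to 252, 307 and 690 CPM in replicates a, b and c with RB, to 297 to 459.9 CPM with H2O2 alone and to 260.3 to 341 CPM in water. RBCS1B, RBCS2B, RBCS3B and LHCB2.1 were at 0 in some libraries, none of them with RB. Of the 7 shoot markers tested 4 were called higher than in water with RB, 1 at 1 h, 1 at 2 h and 2 at 3 h. The shares of all tested genes called higher were 11.6%, 6.55%, 9.21% and 16.2% in that order. Replicate c with RB therefore stands apart in leaf-type transcripts, and the RB results of the 8 genes and the calls of the other lists are given below with and without it. Without it 2 of the 7 shoot markers were called higher with RB over water. In RNA of whole roots, a lower level cannot be told apart from fewer cells of the type that makes the transcript.

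ERF1A, ERF2 and ERF13, the IXa activators, were each higher than in water in every treatment. ERF1A had 1491, 1346 and 1064 CPM in replicates a, b and c with RB. Its levels were 479, 314 and 377 CPM in water, 831, 700.4 and 1034 CPM at 1 h of H2O2, 933, 1299 and 947 CPM at 2 h and 793, 1155 and 1242 CPM at 3 h. No treated library came down to the water range. The log2 fold changes over water were 1.74 ± 0.25 with RB (SE, adjusted p = 3.97e-05), 1.13 ± 0.24 at 1 h (adjusted p = 0.00488), 1.44 ± 0.25 at 2 h (adjusted p = 0.000458) and 1.45 ± 0.25 at 3 h (adjusted p = 0.000206). The RB value of ERF1A was 1.80 without RB replicate c (adjusted p = 0.000135). ERF1A thus stood at nearly the same fold at 2 h and 3 h, and the difference between them was log2 0.00 with a 95% interval of -0.50 to 0.51. Adjusted p-values here and below come from edgeR's quasi-likelihood test with Benjamini-Hochberg adjustment over the 9986 genes, and a gene is called where that value is under 0.05.

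ERF13, a second IXa gene, had its highest mean at the first time point. It had 118, 88.0 and 83.8 CPM with RB. It had 26.3, 41.0 and 39.4 CPM in water, 207, 112 and 153 CPM at 1 h, 102, 108 and 114 CPM at 2 h and 99.2, 131 and 154 CPM at 3 h. All treated libraries lay above all water libraries, and the H2O2 groups overlapped each other. Over water the gene rose by log2 1.44 ± 0.26 with RB (adjusted p = 0.000535), 2.14 ± 0.27 at 1 h (adjusted p = 2.51e-05), 1.60 ± 0.27 at 2 h (adjusted p = 0.000371) and 1.84 ± 0.26 at 3 h (adjusted p = 3.88e-05). The RB value of ERF13 was 1.47 without RB replicate c (adjusted p = 0.00204). At 1 h ERF13 ranked 199 among 9986 genes by log2 fold change over water, the top rank of the 8 genes at that time. The 2 h mean was lower than the 1 h mean by log2 -0.54, with a 95% interval of -1.07 to 0.00, which was not called (adjusted p = 0.745).

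ERF2, an activator of jasmonate and ethylene defence genes, had its highest mean at 3 h. It had 202, 196 and 135 CPM with RB. It had 77.7, 67.9 and 42.7 CPM in water, 121, 145 and 94.7 CPM at 1 h, 149.8, 146 and 109 CPM at 2 h and 172, 205 and 337 CPM at 3 h. Every treated library was above every water library, and all 3 h libraries were above all 1 h and 2 h libraries. The log2 fold changes over water were 1.48 ± 0.28 with RB (adjusted p = 0.000777), 0.94 ± 0.28 at 1 h (adjusted p = 0.0430), 1.09 ± 0.28 at 2 h (adjusted p = 0.0136) and 1.90 ± 0.29 at 3 h (adjusted p = 6.22e-05). The RB value of ERF2 was 1.58 without RB replicate c (adjusted p = 0.00141). The 1 h call was near the threshold. It was lost, at log2 0.72 to 1.04 and adjusted p of 0.0511 to 0.169, when any of 11 single libraries was left out: each library with RB, each in water, a or b at 1 h, a or b at 2 h, or b at 3 h. It was also lost with upper-quartile scaling (log2 0.89, adjusted p = 0.0538), without a filter on low counts (log2 0.88, adjusted p = 0.0538) and with the 2 groups alone (log2 0.91, adjusted p = 0.0828). The 2 h call of ERF2 was lost without water replicate c (log2 0.90, adjusted p = 0.0592) or without 2 h replicate a (log2 0.97, adjusted p = 0.0501).

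**Figure D1:**
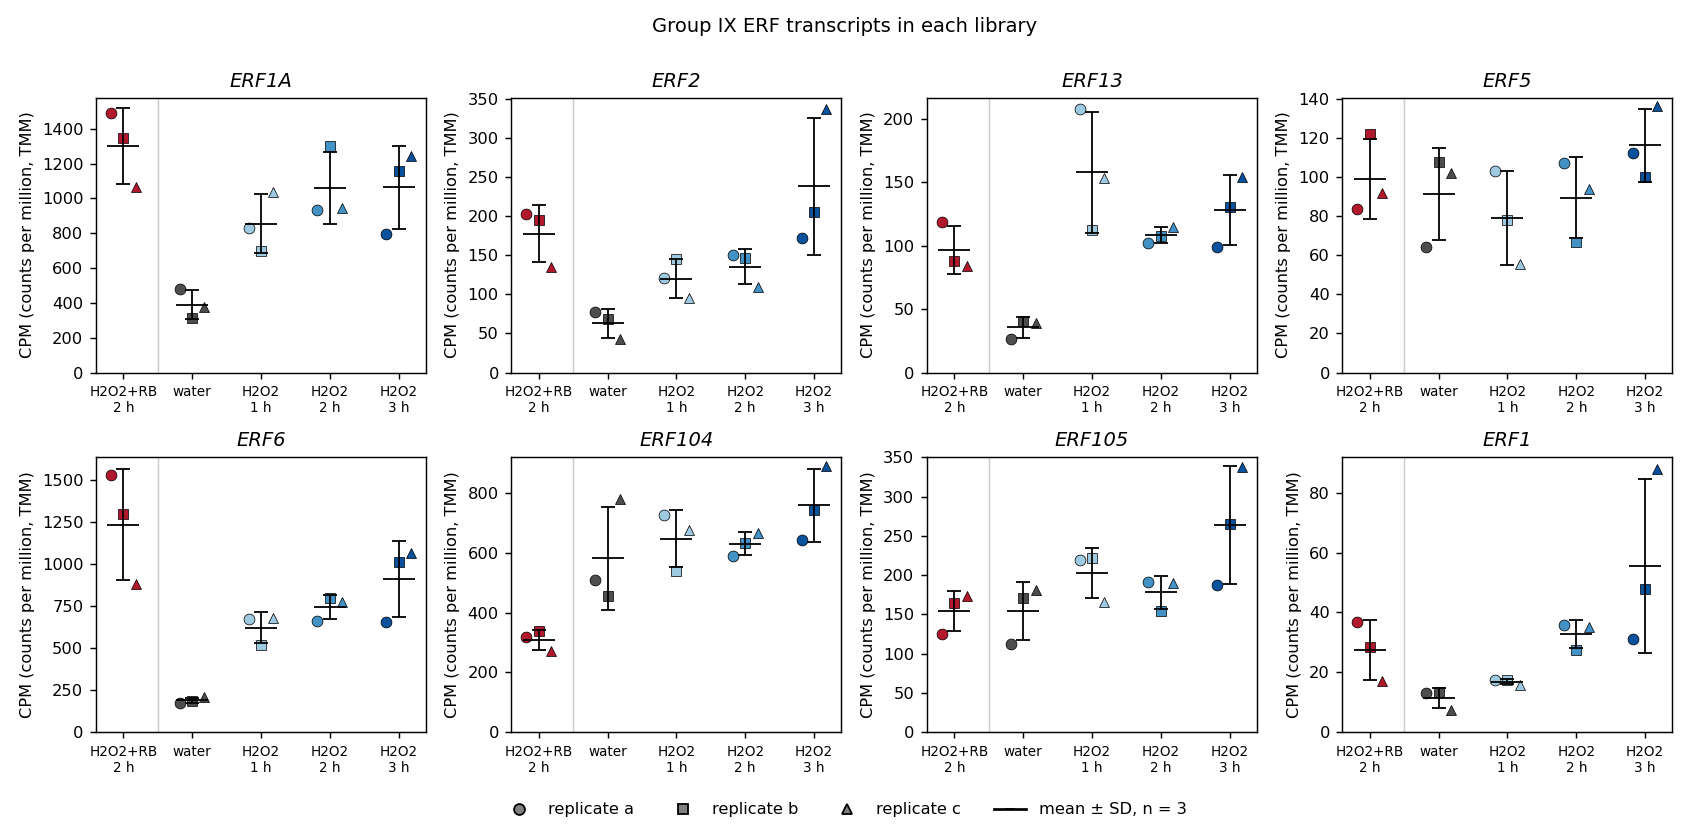
Level of each of the 8 genes in CPM (linear axes from 0), by group, with 1 point per library and bars for the mean ± SD of 3 libraries. ERF6 sat at 173 to 207 CPM in water and at 517 CPM or more in all treated libraries, whereas ERF104 was at 271 to 338 CPM in the RB libraries and at 457 CPM or more in every other library.

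ERF6, an IXb factor phosphorylated by MPK3 and MPK6 and tied to responses to reactive oxygen, gave the largest fold change of the 8 genes in 3 of the 4 comparisons with water. It had 1534, 1297 and 879.8 CPM with RB. It had 173, 188 and 207 CPM in water, 674, 517 and 679 CPM at 1 h, 664, 796 and 775 CPM at 2 h and 655, 1016 and 1067 CPM at 3 h. The water libraries lay within a narrow range, and the lowest treated library was well above it. ERF6 was 6.54-fold higher with RB (log2 2.71 ± 0.25, adjusted p = 2.76e-07), 3.29-fold higher at 1 h (log2 1.72 ± 0.24, adjusted p = 9.79e-05), 3.94-fold at 2 h (log2 1.98 ± 0.24, adjusted p = 1.34e-05) and 4.83-fold at 3 h (log2 2.27 ± 0.25, adjusted p = 1.59e-06). Without RB replicate c the RB value was log2 2.84 (adjusted p = 5.30e-07). These calls held in all 22 alternative settings.

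ERF104, another IXb factor and a substrate of MPK6 in the response to bacterial flagellin, was the only one of the 8 genes called lower in any comparison tested here. It had 317, 338 and 271 CPM with RB. It had 510.0, 457 and 779.7 CPM in water, 727, 541 and 676 CPM at 1 h, 590.1, 634 and 667 CPM at 2 h and 644, 743 and 889.6 CPM at 3 h. The 3 RB libraries were below all 12 others, and the libraries of H2O2 alone overlapped those in water. Against water ERF104 was 1.88-fold lower with RB, a log2 fold change of -0.91 ± 0.22 (adjusted p = 0.00584). Without RB replicate c this value was -0.88 (adjusted p = 0.0265), and it was called in all 22 alternatives. With H2O2 alone the log2 fold changes over water were 0.16 at 1 h (95% interval -0.31 to 0.62), 0.12 at 2 h (-0.35 to 0.58) and 0.39 at 3 h (-0.08 to 0.85), none of them called. Water replicate c was the highest of the water libraries, and without it the 3 h value was 0.65 and was called (adjusted p = 0.0394).

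ERF5, a close relative of ERF6 that takes part with it in chitin and osmotic stress responses, was called in no comparison. It had 83.5, 122 and 91.6 CPM with RB. It had 64.1, 107 and 102 CPM in water, 103, 77.8 and 55.3 CPM at 1 h, 107, 66.7 and 94.0 CPM at 2 h and 112, 99.8 and 136 CPM at 3 h. All groups overlapped the water group. The log2 fold changes over water were 0.12 with RB (95% interval -0.43 to 0.67), -0.20 at 1 h (-0.76 to 0.37), -0.02 at 2 h (-0.58 to 0.54) and 0.35 at 3 h (-0.20 to 0.90). For ERF5 the RB value was 0.11 without RB replicate c. A change as large as that of ERF6 lay outside each of these intervals.

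ERF105, an IXb gene known for its part in freezing tolerance, was called only at 3 h over water among the comparisons tested here. It had 125, 165 and 173 CPM with RB. It had 112, 170.4 and 181 CPM in water, 219, 222 and 166 CPM at 1 h, 191, 154 and 189.6 CPM at 2 h and 188, 265 and 338 CPM at 3 h. The 3 h libraries were above all water libraries, while the other treated groups overlapped water. At 3 h the log2 fold change over water was 0.77 ± 0.24 (adjusted p = 0.0228). The call was lost without 3 h replicate c (log2 0.55, adjusted p = 0.126), without 3 h replicate b (log2 0.77, adjusted p = 0.0536) or without water replicate a (log2 0.59, adjusted p = 0.117). It was also lost with upper-quartile scaling (log2 0.59, adjusted p = 0.0565), with the 2 groups alone (log2 0.77, adjusted p = 0.0529) and with all libraries thinned to equal depth (log2 0.43, adjusted p = 0.404). With RB the value of ERF105 was log2 0.00 (95% interval -0.51 to 0.52) and -0.15 without RB replicate c (adjusted p = 0.785), at 1 h 0.40 (-0.12 to 0.91) and at 2 h 0.21 (-0.31 to 0.72). In the RefSeq annotation ERF105 overlaps AT5G51180, a gene on the opposite strand that is not listed in the deposited count table. The sources used here do not say whether counting used strand. The other 7 genes overlap no annotated gene.

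ERF1, the IXc gene at the meeting point of ethylene and jasmonate signals, had the lowest counts of the 8 (9 to 177 per library). It had 36.9, 28.4 and 17.0 CPM with RB. It had 13.1, 13.6 and 7.39 CPM in water, 17.5, 17.4 and 15.8 CPM at 1 h, 35.7, 27.5 and 35.0 CPM at 2 h and 31.2, 47.9 and 87.8 CPM at 3 h. Every treated library was above every water library, the 1 h ones by the least. The log2 fold change over water was 1.16 ± 0.37 with RB (adjusted p = 0.0305), 0.52 ± 0.39 at 1 h (adjusted p = 0.493), 1.47 ± 0.37 at 2 h (adjusted p = 0.0119) and 2.21 ± 0.37 at 3 h (adjusted p = 0.000165). The 3 h value was 1.73 without replicate c of that time (adjusted p = 0.00137). The RB call of ERF1 was lost, at log2 0.89 to 1.27 and adjusted p of 0.0547 to 0.139, without RB replicate a or b or without any one of the water libraries, and it held without RB replicate c (log2 1.38, adjusted p = 0.0197). At equal depth the RB call was lost as well (log2 1.86, adjusted p = 0.0975).

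**Figure D2:**
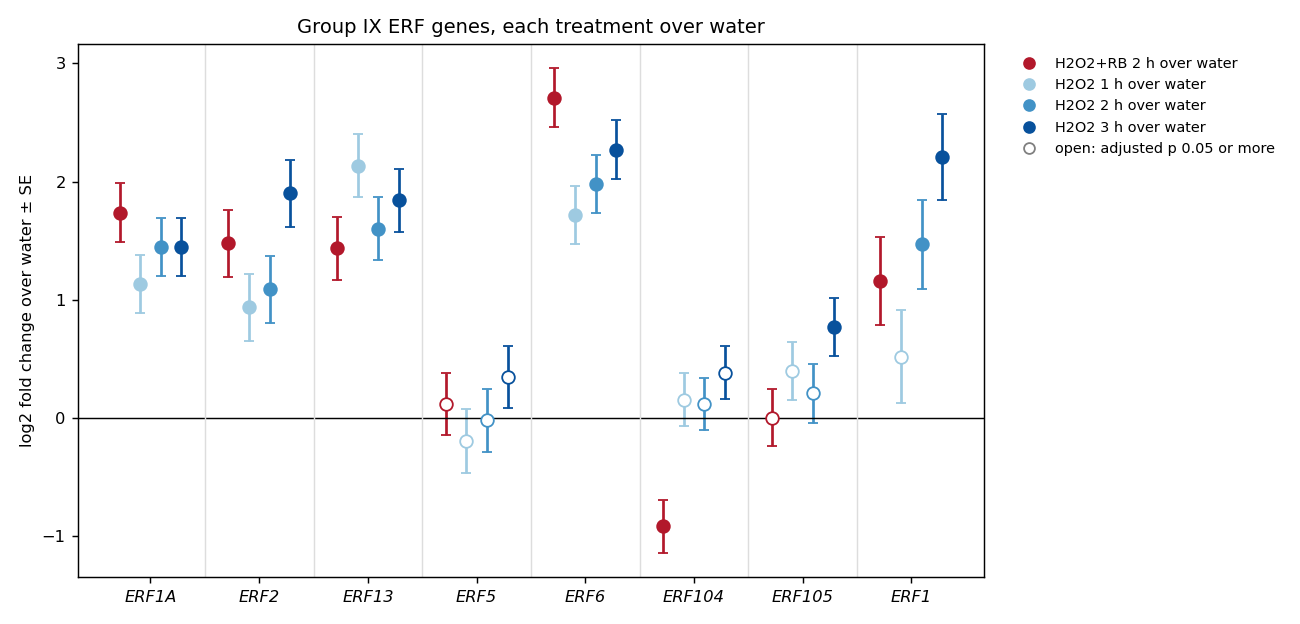
Log2 fold change over water ± SE for each gene and treatment; filled points have an adjusted p under 0.05. ERF104 with RB is the only filled point below 0, at -0.91, and ERF6 with RB is the highest point, at 2.71.

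The 4 comparisons with water share the same 3 water libraries, so their values are set side by side and are not independent of each other. With RB, 5 of the 8 genes were called higher, where 11.6% of all tested genes were, and 1 was called lower, where 9.62% were. At 1 h, 4 of the 8 were called higher, against 6.55% of all tested genes. At 2 h, 5 of the 8 were called higher, against 9.21%, and at 3 h 6 of the 8 were, against 16.2%. None of the 8 was called lower than in water with H2O2 alone by edgeR or by DESeq2, where edgeR called 3.04% of all tested genes lower at 1 h, 4.73% at 2 h and 14.4% at 3 h, and at an unadjusted p under 0.05 the count was also 0. The median log2 fold change of the 8 genes was 1.299 with RB, 0.73 at 1 h, 1.27 at 2 h and 1.65 at 3 h, while the medians over all tested genes were -0.01, 0.01, -0.03 and -0.07.

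By subgroup, all 3 IXa genes were called higher in each of the 4 comparisons with water. Of the 4 IXb genes, ERF6 was called higher in each, joined by ERF105 at 3 h, and ERF104 was called lower with RB. IXc's ERF1 was called higher in all but the 1 h comparison. Counted by libraries, all treated libraries lay above all water libraries for 5 of the 8 genes with RB (20.1% of all tested genes), for 5 at 1 h (14.2%), for 5 at 2 h (16.3%) and for 6 at 3 h (21.4%). All RB libraries lay below all water libraries for ERF104 alone of the 8, as they did for 19.1% of all tested genes.

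RB added to H2O2 at 2 h was compared with H2O2 alone for the same time, the contrast in which treatment time is matched. Of the 8 genes 1, ERF104, was called, against 2.43% of all tested genes in either direction and 1.69% lower. ERF104 averaged 309 ± 34.0 CPM with RB and 631 ± 38.7 CPM with H2O2 alone (SD, n = 3 each), a 2.04-fold lower level (log2 -1.03 ± 0.23, adjusted p = 0.0169). All 3 RB libraries were lower than all 3 libraries of H2O2 alone, as they were for 10.4% of all tested genes. By log2 fold change it ranked 483 from the bottom of 9986 genes. The value stayed between -1.11 and -0.97 over the 22 alternatives. With all libraries DESeq2 called it as well (log2 -1.02, adjusted p = 0.000983). The edgeR call was lost without RB replicate c (log2 -0.97, adjusted p = 0.0908), RB replicate a (log2 -1.05, adjusted p = 0.0587), 2 h replicate b (log2 -1.03, adjusted p = 0.0594) or 2 h replicate c (log2 -0.99, adjusted p = 0.0774). With RB replicate c left out, then, edgeR called none of the 8 genes in this contrast. The part of the shoot-type transcripts of that library in this result was not tested, beyond the size of the log2 value without it.

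ERF6 stood on the other side. It averaged 1237 ± 331 CPM with RB and 745 ± 71.2 CPM with H2O2 alone at 2 h (SD, n = 3 each), with every RB library above every library of H2O2 alone, a pattern seen for 8.95% of all tested genes. The log2 difference was 0.73, with a 95% interval of 0.24 to 1.22, and it was not called (adjusted p = 0.141). Without RB replicate c it was 0.90 (adjusted p = 0.0988). The other 6 genes had overlapping groups and intervals that include 0: ERF2 0.39 (-0.19 to 0.97), ERF1A 0.29 (-0.21 to 0.80), ERF5 0.14 (-0.42 to 0.70), ERF13 -0.16 (-0.70 to 0.37), ERF105 -0.20 (-0.72 to 0.31) and ERF1 -0.31 (-1.06 to 0.44). These 6 differences, without RB replicate c, were 0.54 for ERF2, 0.40 for ERF1A, 0.18 for ERF5, -0.09 for ERF13, -0.32 for ERF105 and -0.04 for ERF1, none of them called. The intervals above give the differences that fit the data and are not limits of detection. At this depth and number of libraries a difference outside an interval such as that of ERF13 could also go uncalled, as the 0.73 of ERF6 did.

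**Figure D3:**
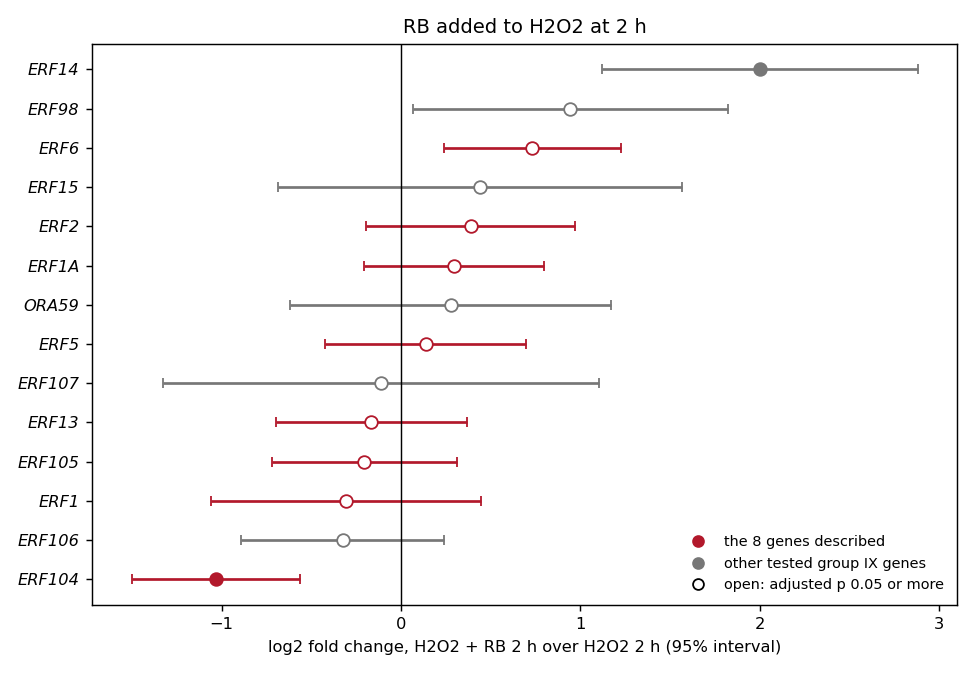
Log2 fold change of H2O2 with RB at 2 h over H2O2 alone at 2 h, with 95% intervals, for the 8 genes (red) and 6 other tested group IX genes (grey); filled points have an adjusted p under 0.05. ERF104 is lower at -1.03, ERF14 is higher at 2.00, and the interval of ERF6 runs from 0.24 to 1.22.

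The opposite directions of ERF6 and ERF104 can be read within each library as a ratio of counts, which does not depend on scaling between libraries. This pair was chosen after the values were seen, so the ratio is a description with no test. The ratio of ERF6 to ERF104 counts was 4.83, 3.84 and 3.24 in replicates a, b and c with RB. It was 0.339, 0.412 and 0.265 in water, 0.926, 0.956 and 1.00 at 1 h, 1.12, 1.26 and 1.16 at 2 h and 1.018, 1.37 and 1.1997 at 3 h. The RB, H2O2 and water libraries formed 3 ranges that did not overlap. A ratio within a library shows unequal change and not which of the genes moved.

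**Figure D4:**
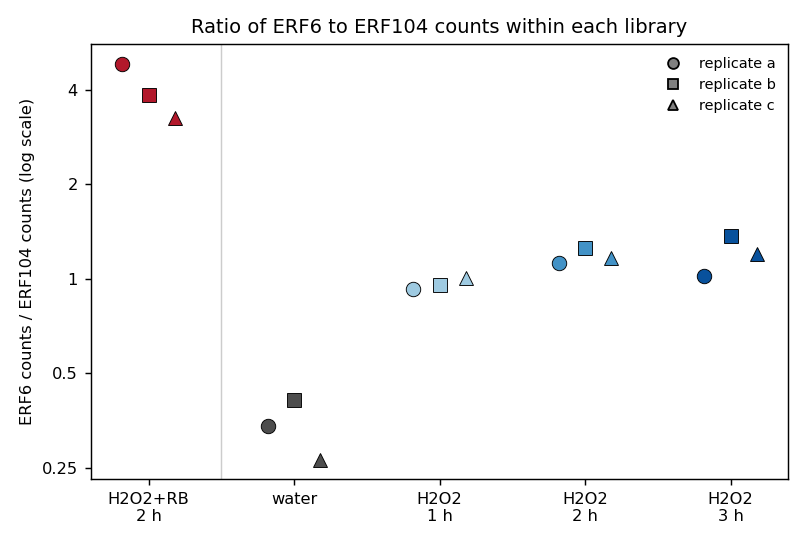
Ratio of ERF6 to ERF104 counts within each library, on a log axis, by group, with 1 point per library. The RB libraries lie between 3.24 and 4.83, the libraries of H2O2 alone between 0.926 and 1.37, and the water libraries between 0.265 and 0.412.

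Over the time course of H2O2 alone, the step between neighbouring times was small for most of the 8 genes. In 2 h against 1 h none of the 8 was called by edgeR, nor by DESeq2, where 0.361% of all tested genes were called by edgeR. At an unadjusted p under 0.05 there was 1, ERF1 (log2 0.95, 95% interval 0.15 to 1.75). In 3 h against 2 h none was called by either tool, where 2.87% of all tested genes were called by edgeR. At an unadjusted p under 0.05 there were 3, with log2 differences of 0.81 for ERF2, 0.74 for ERF1 and 0.56 for ERF105. Without 3 h replicate a, the lowest of the 3 h libraries for these genes, ERF2 was called at log2 1.05 (adjusted p = 0.0438).

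Across the whole course, 3 h against 1 h, ERF1 and ERF2 were called higher, 2 of the 8 genes against 6.91% of all tested genes. ERF1 averaged 55.7 ± 29.1 CPM at 3 h and 16.9 ± 0.962 CPM at 1 h (SD, n = 3 each), a log2 difference of 1.69 ± 0.37 (adjusted p = 0.00556). ERF2 averaged 238 ± 87.1 CPM at 3 h and 120.1 ± 25.04 CPM at 1 h (SD, n = 3 each), a log2 difference of 0.97 ± 0.28 (adjusted p = 0.0267). For both genes all 3 h libraries lay above all 1 h libraries, which held for 13.9% of all tested genes. Replicate c at 3 h was the highest library for both. Without it ERF1 was 1.204 (adjusted p = 0.0407) and ERF2 was 0.63, no longer called (adjusted p = 0.174). The ERF2 call was also lost without 1 h replicate a (log2 0.96, adjusted p = 0.0888) or 1 h replicate c (log2 0.83, adjusted p = 0.0922). ERF6 differed by log2 0.55 (95% interval 0.06 to 1.05, adjusted p = 0.128) and was called without 3 h replicate a (log2 0.80, adjusted p = 0.0266). ERF13 had the lower mean at 3 h, by log2 -0.29 (95% interval -0.82 to 0.24).

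The means of the 8 genes can be ordered across the groups, low to high. For ERF6 and ERF1A the order was water, 1 h, 2 h, 3 h and RB. For both genes water stood below its neighbour, 1 h, by a called difference, and the steps between 1 h and 2 h and between 2 h and 3 h were not called. ERF104 ran RB, water, 2 h, 1 h and 3 h, with RB below its neighbour, water, by a called difference. ERF13 ran water, RB, 2 h, 3 h and 1 h, with water below RB by a called difference. ERF2 ran water, 1 h, 2 h, RB and 3 h, and ERF1 ran water, 1 h, RB, 2 h and 3 h. ERF5 ran 1 h, 2 h, water, RB and 3 h, and ERF105 ran RB, water, 2 h, 1 h and 3 h, and in both no neighbouring pair that was compared differed by a call.

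Among the 8 genes, profiles over the 15 libraries were alike in some pairs and not in others, and these correlations are descriptions over libraries that share treatments and depth. ERF1A and ERF6 had the highest correlation of log2 CPM, at 0.961. They are adjacent in the RefSeq annotation and transcribed away from each other. ERF1 and ERF2, which lie apart, followed at 0.900. ERF2 and ERF5 are neighbours on opposite strands with AT5G47229 between them, and their profiles correlated at only 0.351, so neighbours were not alike in both cases. The ratio of ERF2 to ERF5 counts was 2.43, 1.60 and 1.48 with RB. It was 1.21, 0.632 and 0.419 in water, 1.17, 1.86 and 1.71 at 1 h, 1.397, 2.19 and 1.16 at 2 h and 1.54, 2.05 and 2.47 at 3 h. The RB and 3 h libraries lay above all water libraries, and the 1 h and 2 h libraries overlapped water. ERF104 had low or negative correlations with most of the others, at -0.187 with ERF6, -0.156 with ERF1A and -0.06 with ERF2, and its nearest was ERF105 at 0.575. ERF5 was likewise nearest to ERF105, at 0.579.

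Outside the 8, the genes whose profile over the 15 libraries was most like that of ERF6 were AT1G56060 at 0.987, AT2G44578 at 0.986 and WRKY6, a WRKY transcription factor, at 0.983. For ERF1A they were AT1G04330 at 0.962, SERAT2;1, a serine acetyltransferase, at 0.957, and UGT73B5, a glycosyltransferase, at 0.949. ERF104 was most like AT3G57540, annotated as remorin REM4.1, at 0.939, the glycosyltransferase UGT72E1 at 0.935 and USPL1 at 0.934. ERF13 was most like AT1G56150, annotated as SAUR71, at 0.955, and ERF2 was most like the histone gene HTB4 at 0.938. For the mean profile of the 8 genes the list was led by AT2G32030 at 0.984, AT1G07500, annotated as the cell cycle inhibitor gene SMR5, at 0.967, AT4G36010 at 0.964, MKS1, a substrate of MAP kinase MPK4, at 0.961, and SAG21 at 0.959. Nearest profiles of ERF5 reached only 0.853, with AT4G33720.

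Of 9 further group IX genes 8 were in the table and 6 were tested. With RB 3 of the 6 were called higher, at 1 h and 2 h 2, and at 3 h 3. Over all tested genes 11.6% were called higher with RB, 6.55% at 1 h, 9.21% at 2 h and 16.2% at 3 h. None of the 6 was called lower by edgeR or DESeq2, and 1 was lower at an unadjusted p under 0.05, with RB. Their median log2 fold change was 0.80 with RB, 0.73 at 1 h, 0.64 at 2 h and 1.19 at 3 h. ERF98, an activator of ascorbate synthesis genes and the annotated neighbour of ERF1, had 196, 142 and 97.1 CPM with RB. It had 1.99, 0.496 and 4.92 CPM in water, 31.3, 44.6 and 36.3 CPM at 1 h, 102, 73.5 and 47.0 CPM at 2 h and 74.9, 119.8 and 248 CPM at 3 h. The water libraries rest on 3 to 6 counts, and the log2 fold changes, which are uncertain for that reason, were 6.43 with RB, 4.51 at 1 h, 5.49 at 2 h and 6.45 at 3 h. ERF14, a defence regulator of subgroup IXc, had 31.5, 30.7 and 22.8 CPM with RB and 8.37, 4.90 and 6.83 CPM with H2O2 alone at 2 h, and was called higher with RB (log2 2.00 ± 0.42, adjusted p = 0.0131). This gene had 5 to 22 counts per library at 2 h of H2O2 alone and 1 to 3 in water, so its fold changes are uncertain too. The ERF14 value was 2.14 without RB replicate c (adjusted p = 0.0343), and ERF98 with RB over water was 6.57 (adjusted p = 7.85e-07). Over water ERF14 with RB was at log2 5.33 (adjusted p = 8.77e-07), and at 5.39 without RB replicate c (adjusted p = 3.71e-06). ERF15, which acts in abscisic acid and immune responses, was called over water with RB (log2 1.62) and at 3 h (log2 2.04), and its RB call was lost without RB replicate c (log2 1.72, adjusted p = 0.0697). ORA59, the jasmonate and ethylene integrator, ERF106 and ERF107, the annotated neighbour of ERF104, were not called over water in any treatment. ERF106 was called lower with RB when RB replicate c was left out (log2 -0.96, adjusted p = 0.0420). ERF107 had 8.89, 15.6 and 3.46 CPM with RB and 11.6, 4.13 and 12.3 CPM in water.

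Genes upstream of the ERFs in ethylene signalling were not called higher than in water in any treatment by edgeR or DESeq2, nor was any higher at an unadjusted p under 0.05. Of 13 listed, 11 were tested, and 3 were called lower than in water with RB, 4 at 1 h, 4 at 2 h and 4 at 3 h. Over all tested genes 9.62% were called lower with RB, 3.04% at 1 h, 4.73% at 2 h and 14.4% at 3 h. Without RB replicate c the RB count was again 3. EBF2, an F-box gene that turns over EIN3 and is itself induced by ethylene, was called lower by log2 -1.33 at 1 h, -1.27 at 2 h and -2.11 at 3 h, and stood at -0.91 with RB, which was not called (adjusted p = 0.0546). Its partner EBF1 was called at -1.62, -1.64 and -1.39 at these times, and stood at -0.95 with RB, not called (adjusted p = 0.0986). They were followed by the receptor gene ETR2, at -0.85 with RB, -1.11 at 1 h, -0.98 at 2 h and -0.91 at 3 h. EIN2 was called lower with RB (log2 -1.17), at 2 h (-0.82) and at 3 h (-1.08). EIL1 was also called lower with RB (log2 -1.03, adjusted p = 0.0155), and again without RB replicate c (log2 -1.05, adjusted p = 0.0482). EIN3, whose product binds the ERF1 promoter, was not called over water in any treatment, at log2 -0.44 with RB, -0.78 at 1 h, -1.05 at 2 h and -0.70 at 3 h. It had 3 to 30 counts per library in water, 1 to 16 at 1 h and 1 to 10 at 2 h, so a change could be missed. The list's median log2 fold change was -0.44 with RB, -0.78 at 1 h, -0.54 at 2 h and -0.70 at 3 h, beside medians of -0.01, 0.01, -0.03 and -0.07 over all tested genes. The list mixes genes that act for and against EIN3, so its median is not a measure of ethylene signalling.

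Of 10 ethylene synthesis genes 8 were tested. With RB 1 was called higher, ACS2 (log2 2.79, on 1 to 9 counts per library in water), and 2 lower, ACO3 (log2 -2.01) and ACO5 (log2 -1.40). None was called at 1 h by edgeR or DESeq2, where 5 had an unadjusted p under 0.05, and 1 was called at 2 h, ACO3 (log2 -2.10). At 3 h ACS7 (log2 2.35) and ACO4 (log2 1.24) were called higher and ACO3 (log2 -3.17) lower. ACS6, whose product MPK3 and MPK6 stabilise, was not called over water in any treatment by edgeR (adjusted p = 0.0749 with RB). With RB over water DESeq2 called 2 of the 8 genes higher and 2 lower. Without RB replicate c, ACS6 was called higher with RB (log2 1.98, adjusted p = 0.00604) and ACO3 was no longer called (log2 -1.38, adjusted p = 0.0836), while ACS2 and ACO5 were called again. The median of the 8 was -0.23 with RB, 0.33 at 1 h, 0.01 at 2 h and 0.02 at 3 h. Over all tested genes 11.6% were called higher and 9.62% lower with RB, and 6.55% and 3.04% at 1 h. At 2 h these shares were 9.21% and 4.73%, and at 3 h 16.2% and 14.4%. Whether the list departs from these shares was not tested.

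Among the MAP kinase genes 6 of 9 were tested. MKK9, a kinase kinase tied to ethylene and camalexin synthesis, was called higher with RB (log2 0.73), at 2 h (0.95) and at 3 h (1.35), and MKK4 was called lower at 3 h by edgeR (log2 -0.72) and not by DESeq2. The RB call of MKK9 was lost without RB replicate c (log2 0.79, adjusted p = 0.0589). At 1 h none was called by either tool, and 1 was higher at an unadjusted p under 0.05. The median of the 6 was 0.21 with RB, 0.20 at 1 h, 0.25 at 2 h and -0.23 at 3 h. MPK3 and MPK6, whose products phosphorylate ERF6 and ERF104, were not called over water in any treatment. The shares of all tested genes called higher were 11.6% with RB, 6.55% at 1 h, 9.21% at 2 h and 16.2% at 3 h. At 3 h 14.4% were called lower. All 5 genes listed as regulators downstream of ERF5 and ERF6 were tested, and 3 were called higher with RB, 2 at 1 h, 4 at 2 h and 4 at 3 h. The RB count was again 3 without RB replicate c. Their median was 1.37 with RB, 0.97 at 1 h, 1.22 at 2 h and 1.203 at 3 h. WRKY33 was called in each, at log2 1.37 with RB, 1.05 at 1 h, 1.22 at 2 h and 1.46 at 3 h. ZAT12 reached log2 2.30 at 3 h, and GA2OX6, a gibberellin-inactivating enzyme gene, was called at 2 h alone (log2 2.33).

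Of 6 defence genes that answer to ethylene and jasmonate 3 were tested. All 3 were called higher at 3 h over water, where 16.2% of all tested genes were, and at 3 h over 1 h, where 6.91% were. ERF1 and ERF2 were also called at 3 h over 1 h, and a link to these 3 genes was not tested. PR4, a hevein-like protein gene, had 388, 702 and 1913 CPM at 3 h and 217, 314 and 329 CPM in water (log2 1.80 ± 0.41, adjusted p = 0.00253). PR3, a basic chitinase gene, was at log2 0.83 and the protease inhibitor gene TI1 at 2.27. Replicate c was the highest 3 h library for PR4, and the PR4 value without it is not given here. TI1 had 6 to 8 counts per library in water and 0 to 2 at 1 h, so its values are uncertain. None of the 3 was called over water with RB or at 1 h or 2 h by edgeR or DESeq2, or had an unadjusted p under 0.05 there, and PR4 stood at log2 -0.14, 0.44 and 0.75. Without RB replicate c, again none of the 3 was called with RB over water. The group VIII ERFs, which act as repressors at the same GCC box, were all 8 tested. Of these 1 was called over water, ERF9 at 3 h (log2 1.01), where 16.2% of all tested genes were called higher. The list median was 0.42 at that time. With RB over water none of the 8 was called, with or without RB replicate c, where 11.6% of all tested genes were called higher and 9.62% lower with all libraries.

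**Figure D5:**
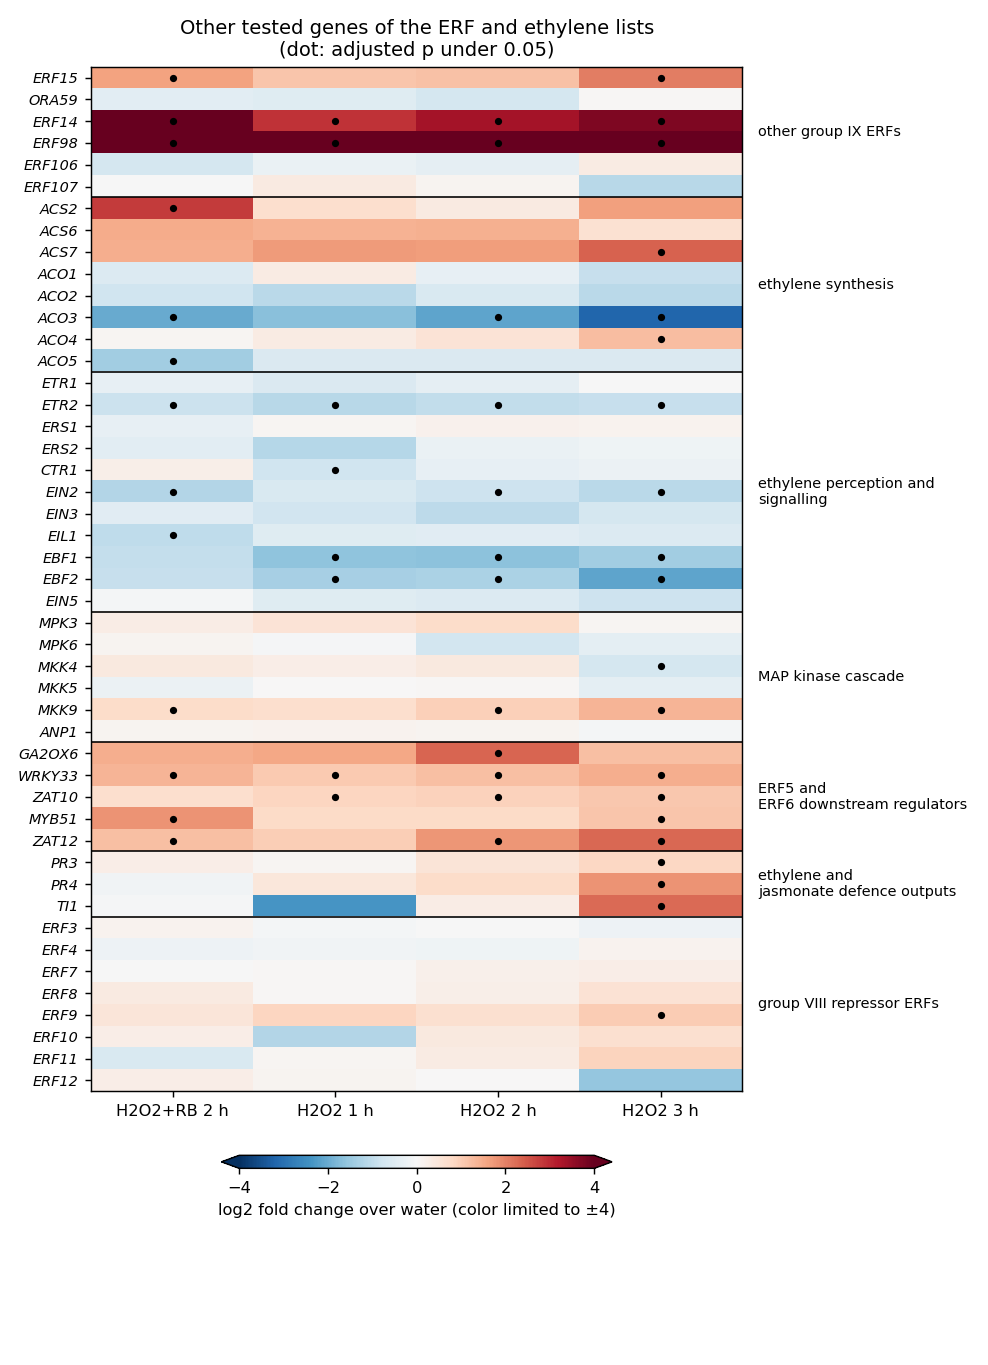
Log2 fold change over water (colour, limited to 4 in either direction) of the other tested genes of each list, in columns for H2O2 with RB at 2 h and H2O2 alone at 1 h, 2 h and 3 h; dots mark an adjusted p under 0.05. ERF98 and ERF14 carry dots in all 4 columns, on 3 to 6 and 1 to 3 counts per library in water. No gene of ethylene perception and signalling is called higher.

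The authors' deposited table gives its log2 fold changes as the first-named group over the second, so values over water are given here with the sign turned. For ERF104 the authors' deposited table has -0.92 with RB over water (adjusted p = 0.00100), close to the -0.91 above. For ERF6 with RB over water the authors' deposited table has 2.70 (adjusted p = 1.61e-24). At 3 h over water the authors' deposited table lists adjusted p-values of 0.0836 for ERF1, 0.0655 for ERF1A and 0.707 for ERF105, which the fit described here called. The log2 fold changes of that comparison in the authors' deposited table, 2.24, 1.46 and 0.78, were near those above, so the calls and not the sizes differ. At 3 h over 1 h the authors' deposited table has log2 1.72 for ERF1 (adjusted p = 0.133) and 0.99 for ERF2 (adjusted p = 0.377). The fit described here called both. H2O2 with RB against 3 h of H2O2 alone was not tested in this fit. There the authors' deposited table has lower levels with RB for ERF104 (log2 -1.32, adjusted p = 1.24e-06), ERF1 (-1.07, adjusted p = 0.0463) and ERF105 (-0.79, adjusted p = 0.0276). For the rest of the genes its adjusted p was 0.298 or more.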

How the data were processed

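Root RNA of 15 MARS-seq libraries was analysed from the counts per gene that the authors deposited. Per the submitters' processing notes, bcl2fastq, cutadapt, STAR 2.4.2a, HTSeq and DESeq2 were used, in roles not stated. Neither genome build, annotation nor the handling of molecular identifiers is given in the sources used here. Counting error may therefore exceed that of molecules. The other 30 per-sample columns were not used. The authors' deposited log2 fold changes and adjusted p-values were read for side-by-side values alone. The table is a filtered list, since the smallest maximum count of a listed gene was 6.

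The count model was that of edgeR 4.0.16 (R 4.3.3), after filterByExpr (minimum count 10, minimum total 15) and TMM scaling (factors 0.784 to 1.203). A robust quasi-likelihood fit had a term per group over 15 libraries, leaving 10 residual degrees of freedom. Tests were two-sided, with Benjamini-Hochberg adjustment over 9986 genes and a call at an adjusted p under 0.05. The SE is the log2 fold change over the root of its F, and 95% intervals use the same fit. CPM values are counts scaled to 1 common total, and correlations used log2 CPM with a prior count of 2. The biological coefficient of variation was 0.272 in common, and the median SE over genes was 0.36 to 0.39. The scripts were tested on simulated data. DESeq2 1.42.0 and the other alternatives are given in the closing section.

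The replicate letters are not said to mark pairs and were not used as a block. Group labels came from the treatment fields, and p-values measure the spread between biological replicates of pooled seedlings. All 8 genes are named in each comparison with water, and from each other list the called genes of largest change and its defining genes. Genes of like profile are the 3 of highest Pearson correlation per gene and 5 for the mean. Leaving out RB replicate c for the other lists was chosen after seeing the data. The genes and lists were chosen with earlier results of these data known. Gene neighbours and symbols came from RefSeq, whose build may not be that of the files, so no coordinates or sequences are given.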

Additional observations from a re-analysis of the deposited data

Results flagged for a closer look

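Of the 8 genes, 2 differed between time points of H2O2 alone by a test of the difference itself, 3 h against 1 h in the same edgeR fit. The effect of ERF1 over water was larger at 3 h than at 1 h by log2 1.69 (adjusted p = 0.00556), with all 3 libraries at 3 h above all 3 at 1 h. The effect of ERF2 over water was larger at 3 h than at 1 h by log2 0.97 (adjusted p = 0.0267), again with all 3 libraries at 3 h above all 3 at 1 h. Replicate c at 3 h was the highest library for both, and without it the values were 1.204 (adjusted p = 0.0407) for ERF1 and 0.63 (adjusted p = 0.174) for ERF2.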

How the results depend on the processing

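Each value was recomputed under 22 alternatives. Over the water comparisons ERF6, ERF13 and ERF1A kept every call in all 22, as did ERF104 with RB. The number of the 8 genes called at 3 h over 1 h was 2, and became 1 with upper-quartile scaling, 1 with the 2 groups alone and 0 at equal depth; with RB over H2O2 alone it was 1, and 0 at equal depth. Equal depth, thinned to the smallest library, left 314 genes at 1 h, 452 at 2 h, 980 at 3 h and 766 with RB over water, 53 with RB over 2 h, 17 at 2 h over 1 h, 28 at 3 h over 2 h and 302 at 3 h over 1 h; there ERF1 was lost at 2 h over water (adjusted p = 0.0673), with RB over water (0.0975) and at 3 h over 1 h (0.0801), as were ERF105 at 3 h over water (0.404), ERF104 with RB over 2 h (0.0922) and ERF2 at 3 h over 1 h (0.209). ERF2 at 3 h over 1 h was also lost with upper-quartile scaling (adjusted p = 0.0526) and the 2 groups alone (0.0504), and ERF6 there was called without a filter (0.0367). At 2 h over 1 h, 36 genes became 87 with DESeq2 and 19 with the 2 groups alone. Leaving out 1 library in turn gave 580 to 1078 genes at 1 h over water, 901 to 1490 at 2 h, 0 to 45 at 2 h over 1 h, 716 to 1506 at 3 h over 1 h, 145 to 415 at 3 h over 2 h and 91 to 286 with RB over 2 h, and 1 to 3, 0 to 1 and 0 to 1 of the 8 genes in the last 3 of these. Upper-quartile scaling moved the median of all genes by -0.16 at 3 h over water, where 41.0% of calls were higher against 53.0%, and by -0.12 at 3 h over 1 h (38.1% against 49.9%).

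With the replicate letters as a block, the number of the 8 genes called stayed at 6 with RB, 4 at 1 h, 5 at 2 h and 6 at 3 h over water, and all genes called became 2055, 946, 1366 and 2894, against 2120, 958, 1392 and 3048. The letters were not taken as pairs: same-letter libraries correlated at -0.44 to 0.64 in their deviations over 30 pairs, and 7 of 15 libraries correlated best with their own letter. No called value turned its direction. Among values called in neither setting, ERF105 with RB over water was -0.014 with RLE scaling, -0.052 with upper-quartile scaling, -0.0097 with DESeq2, -0.0018 without a filter and -0.23 to 0.13 with 1 library left out. ERF1A at 3 h over 2 h was -0.11 with upper-quartile scaling, -0.028 with the 2 groups alone, -0.083 at equal depth and -0.12 to 0.23 with 1 library left out. ERF104 at 2 h over 1 h was 0.0027 without a filter and -0.15 to 0.054 with 1 library left out, and over water, with 1 library left out, -0.014 to 0.42 at 1 h and -0.042 to 0.38 at 2 h. ERF5 at 3 h over water was -0.049 at equal depth. With 1 library left out, ERF5 was -0.27 to 0.15 at 2 h over water, -0.13 to 0.25 with RB over water and -0.036 to 0.28 with RB over 2 h, and ERF105 at 2 h over water was -0.019 to 0.33. The cause was not tested.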
